A study of Chlamydomonas reinhardtii with 42 samples.

Results

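The strains DHC16 and A31 of Chlamydomonas reinhardtii, a single-celled green alga with a single large chloroplast, were compared by RNA sequencing 48 h after vitamin B12 and thiamine had been added to their medium. The comparison takes the 3 DHC16 libraries (19, 22 and 25) against the 2 A31 libraries (19 and 22) of that time, 5 of the 17 libraries in the deposited count table, and it covers 14422 tested genes of 17114 measured. Both groups had received both vitamins, which, per the labels, were given to deplete ClpP1. The labels give no genotype for either strain and do not say which of them is depleted, and cells were grown at 25 °C on Tris-acetate under light, dim light or darkness without a statement of which sample had which. A difference between the strains at 48 h therefore holds the strain background, the response to the vitamins and the growth conditions together, and these cannot be told apart from the 48 h libraries alone. The same strains at 0 h (3 libraries each) are set beside them for what was present before the vitamins. Replicates are not said to be separate cultures, so p-values cover only how far these libraries scatter, and that scatter may be technical. A31 library 25 was not analysed here.

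ClpP1 is a catalytic subunit of the chloroplast Clp protease, an essential enzyme of the stroma in this alga that breaks down soluble and membrane proteins of the plastid. The gene lies on the chloroplast genome, whereas most chaperones, proteases and photosynthesis proteins of the plastid are encoded in the nucleus and imported, and their transcripts are those described here. Chaperones of the HSP70, HSP100 and small heat shock families bind or refold unfolded proteins, proteases of the DEG and FtsH families remove damaged ones, and autophagy delivers cell material to the vacuole for breakdown.

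The libraries held 7458423 to 8266807 reads in DHC16 and 10856405 to 13699705 in A31 at 48 h. The 3 DHC16 libraries had rank correlations of 0.971 to 0.981 with each other over the tested genes, whereas the A31 libraries 19 and 22 had 0.854. A31 library 19 was nearer to the A31 libraries of 0 h (mean rank correlation 0.943, against 0.813 for 12 h), and A31 library 22 was nearer to those of 12 h (0.919, against 0.775 for 0 h). The A31 libraries differed from each other by more than 1 on the log2 scale at 4645 genes, while the range over the DHC16 libraries passed 1 at 1977 genes. What sets the A31 libraries apart was not tested, and the values of both A31 libraries are given for most genes described below. METE, which makes methionine without cobalamin and is known as a gene that vitamin B12 represses, had 338, 340 and 289 normalized counts in DHC16, against 1001 and 353 in A31. METE did not pass the test (log2 difference -0.89 ± 0.43 SE, adjusted p = 0.23), and A31 library 22 was close to the DHC16 values while A31 library 19 was not. In A31 METE had 1050, 579.0 and 814.2 at 0 h and 165.1, 140.2 and 145.6 at 12 h. In DHC16 it had 935.2, 584.7 and 1004 at 0 h and 263.0, 268.4 and 259.4 at 12 h. The METE value of A31 library 19 at 48 h thus lay within the A31 range before the vitamins, and the reason was not tested. The targeted clpP1 was not analysed here.

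Values are the authors' normalized counts, given in library order (19, 22 and 25 for DHC16, then 19 and 22 for A31), and differences are DHC16 minus A31 on the scale log2(normalized count + 1), with the SE and Benjamini-Hochberg adjusted p of limma fitted to all tested genes of the 5 libraries. At an adjusted p under 0.05, 943 genes (6.54% of those tested) were higher in DHC16 and 688 (4.77%) were lower. All of these 1631 genes (11.3%) separated the strains without overlap, which comes from the same 5 libraries as the test and is no added support. Over all tested genes the 3 DHC16 libraries lay above both A31 libraries at 3314 (23.0%), below both at 3236 (22.4%), and between the A31 libraries at 2599 (18.0%). The differences were large: 441 of the higher genes and 393 of the lower genes passed 2 on the log2 scale, and 88 and 36 passed 4, with medians of 1.92 and -2.20 over the higher and the lower genes. Leaving out an A31 library leaves a single one, and the spread then comes from DHC16 alone. Below, such fits are given as differences, without counts of calls. The count fell whichever DHC16 library was left out, to 512, 398 and 383 without library 19, 22 or 25. Those fits also have fewer libraries to estimate the spread, so the fall does not single out a library. On the recovered reads it was 1726 with edgeR (859 higher and 867 lower) and 2568 with DESeq2 (1205 higher and 1363 lower). With per-million scaling it was 3126 (2680 higher and 446 lower).

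**Figure D1:**
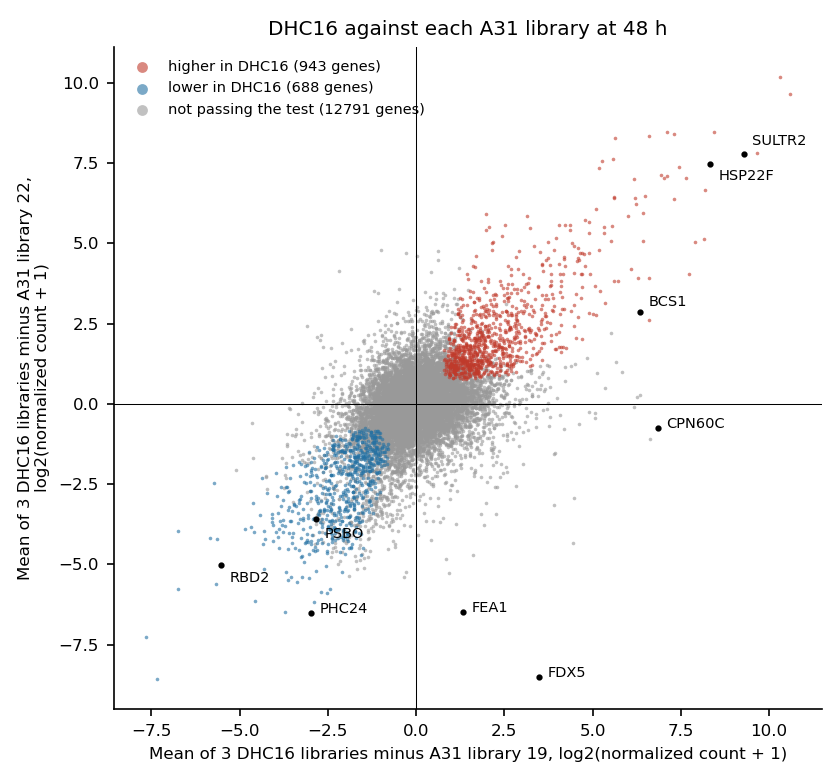
Each point is 1 of 14422 tested genes, placed by the mean of the 3 DHC16 libraries minus A31 library 19 (horizontal axis) and minus A31 library 22 (vertical axis), in log2(normalized count + 1). The 943 higher genes (red) lie in the upper right and the 688 lower genes (blue) in the lower left, while FDX5, FEA1 and CPN60C differ in sign between the A31 libraries.

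Among the 12 genes with a symbol and the largest differences upward were a sulfate transporter, a pair of small heat shock proteins, a phosphatase, other transporters and a protease. SULTR2 (Cre17.g723350), a sulfate transporter known from sulfur-starved cells, had 2666, 3237 and 3281 normalized counts in DHC16, against 3.92 and 12.8 in A31, a log2 difference of 8.53 ± 0.43 (adjusted p = 1.6e-04). The A31 libraries held 19 reads of SULTR2 in all, and the ratio of DHC16 over A31 was 383 (95% exact interval 245 to 636, counting error only). RDP3 (Cre07.g352550), described as a rhodanese domain phosphatase, had 1094, 1259 and 1154 normalized counts in DHC16, against 22.7 and 2.73 in A31 (log2 difference 6.96 ± 0.68, adjusted p = 0.0016). PWR1 (Cre03.g174450), described only as a predicted PWR protein, had 5971, 7368 and 7185 in DHC16, against 262.6 and 258.6 in A31 (log2 difference 4.70 ± 0.25, adjusted p = 1.8e-04). TRZ1 (Cre10.g431400), a nuclear RNase Z, an enzyme that trims the 3′ ends of tRNA precursors, had 1158, 1276 and 1256 in DHC16, against 83.9 and 113.8 in A31 (log2 difference 3.64 ± 0.25, adjusted p = 4.8e-04). In these 4 genes the DHC16 values lay close together and far above both A31 values.

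**Figure D2:**
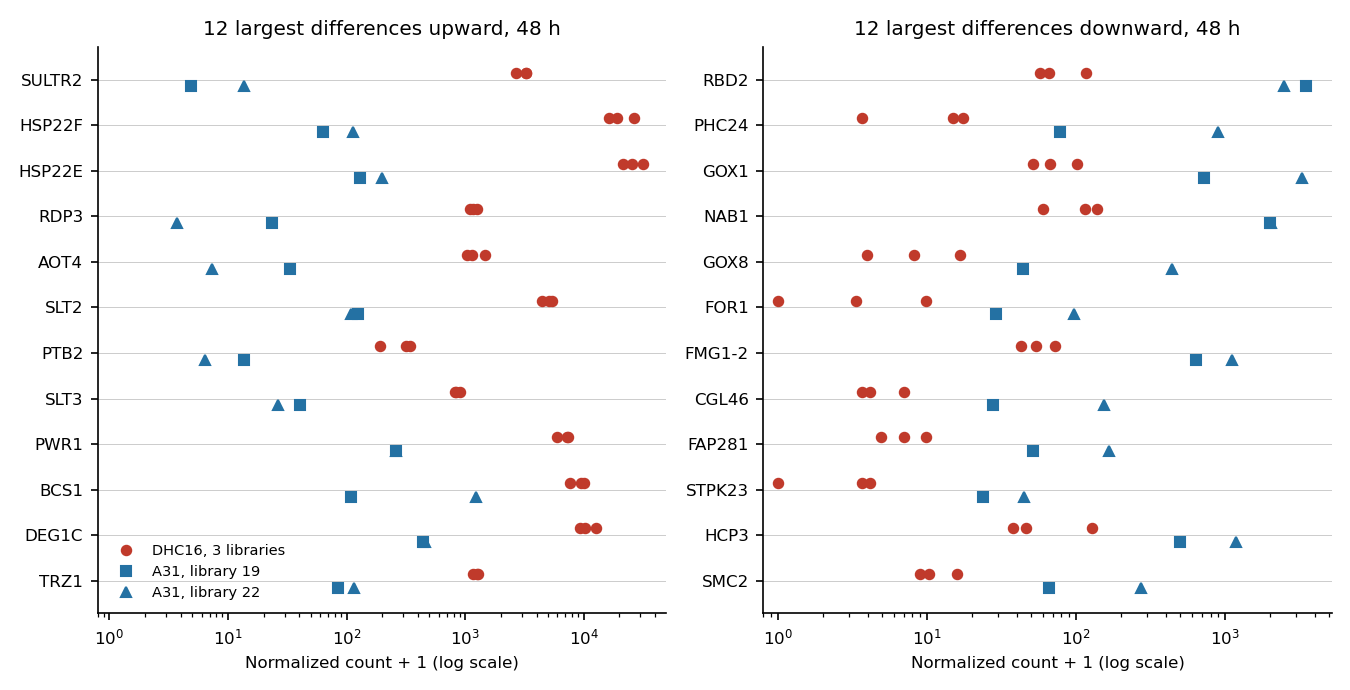
Normalized count + 1 (log axis) of the 12 named genes with the largest differences in each direction, with the 3 DHC16 libraries as red circles above the A31 libraries 19 (blue square) and 22 (blue triangle). The genes were chosen among those called without overlap, so in each the DHC16 libraries lie beyond both A31 libraries. The A31 libraries lie close together for NAB1 and DEG1C and far apart for others, such as BCS1, PHC24 and CGL46.

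Among 8 listed chloroplast chaperones, 4 were higher in DHC16 and 0 lower, with a median log2 difference of 1.85 against 0.01 over all tested genes. The background among the 766 tested genes that carry a symbol was 7.44% higher and 11.0% lower, and these shares are the background of every list below. HSP22F (Cre14.g617400), which encodes a small heat shock protein of the stroma, had 16475, 26412 and 19120 normalized counts in DHC16, against 61.9 and 112.9 in A31, a log2 difference of 7.90 ± 0.36 (adjusted p = 8.4e-05). HSP22E (Cre14.g617450), its close relative, had 21443, 31721 and 25327 in DHC16, against 127.8 and 197.6 in A31 (log2 difference 7.34 ± 0.32, adjusted p = 8.4e-05). The coding regions of this pair are nearly identical, so how many reads belong to each is uncertain. CLPB3 (Cre02.g090850), the Hsp100 disaggregase of the chloroplast, had 2449, 3100 and 2599 in DHC16, against 711.8 and 813.1 in A31 (log2 difference 1.83 ± 0.25, adjusted p = 0.0053). VIPP1 (Cre13.g583550), a protein that shapes and protects thylakoid membranes, had 7472, 4542 and 6238 in DHC16, against 2105 and 2728 in A31 (log2 difference 1.31 ± 0.32, adjusted p = 0.041). The groups did not overlap for these 4 genes, and 3, 3 and 2 members of the list passed without DHC16 library 19, 22 or 25.

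HSP70B (Cre06.g250100), the chloroplast Hsp70, showed how the A31 libraries set a call. It had 8550, 10280 and 8738 normalized counts in DHC16, against 496.2 and 4104 in A31, and did not pass (log2 difference 2.68 ± 0.77, adjusted p = 0.069) although every DHC16 library was higher. CPN10 (Cre03.g178450), a co-chaperonin of CPN60 that the authors' annotation places very likely in mitochondria although it matched this list, had 1528, 1759 and 1375 in DHC16, between 90.9 and 1946 in A31. The nucleotide exchange factor CGE1a (Cre07.g341600), a partner of chloroplast Hsp70, had 1835, 2121 and 1979 in DHC16, against 1725 and 1876 in A31 (log2 difference 0.14 ± 0.24, adjusted p = 0.76). Of 10 other listed chaperones only DNJ5 passed, with 1137, 1194 and 1207 in DHC16, against 243.0 and 180.3 in A31 (log2 difference 2.49 ± 0.25, adjusted p = 0.0017). DNJ5 (Cre16.g690400) is a DnaJ-like protein, a class of partners that deliver substrates to Hsp70. The median log2 difference over these 10 was 1.93 against A31 library 19 and -0.007 against A31 library 22.

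Of 5 chloroplast proteases 1 was higher and 0 lower, against 7.44% higher and 11.0% lower among all genes with a symbol. DEG1C (Cre12.g498500), a DegP-type serine protease, had 9317, 12638 and 10319 normalized counts in DHC16, against 441.3 and 460.7 in A31, a log2 difference of 4.56 ± 0.27 (adjusted p = 2.3e-04). Its relative DEG1A had 536.8, 694.9 and 560.9 in DHC16, against 283.8 and 327.8 in A31, just short of the threshold (log2 difference 0.96 ± 0.25, adjusted p = 0.0502). FTSH1 and FTSH2, the subunits of the thylakoid protease that removes damaged photosystem II proteins, had log2 differences of 0.55 ± 0.36 and 0.67 ± 0.29 (adjusted p = 0.37 and 0.19). EGY1, a membrane metalloprotease, had 0.44 ± 0.32 (adjusted p = 0.41). The median log2 difference of the 5 proteases was 1.06 against A31 library 19 and 0.37 against A31 library 22.

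**Figure D3:**
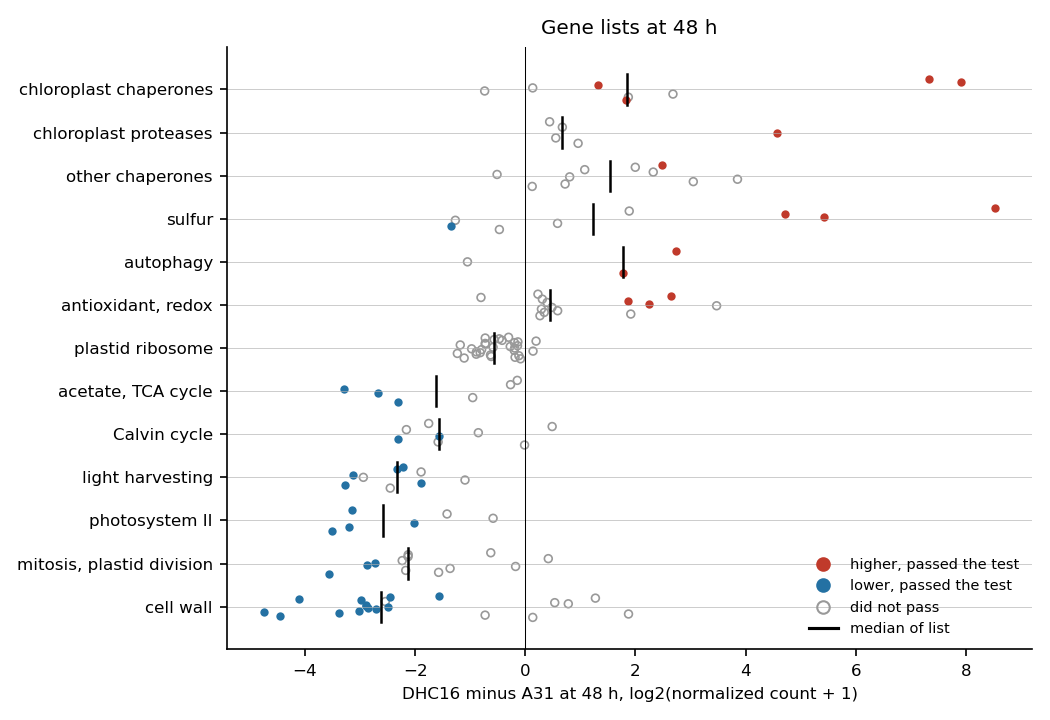
DHC16 minus A31 at 48 h in log2(normalized count + 1) for each tested member of 13 gene lists, with members that passed the test filled (red higher, blue lower), others open, and the list median as a black bar. The HSP22 genes, DEG1C and SULTR2 stand far to the right, and the photosystem II, light-harvesting and cell wall lists lie to the left.

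Single genes of sulfate, phosphate and amino acid transport differed strongly, while other members of these lists did not pass. Of 8 genes of sulfur transport and assimilation 3 were higher and 1 lower, and the 3 higher genes passed with any DHC16 library left out. Beside SULTR2 these were SLT2 and SLT3, sodium/sulfate co-transporters. SLT2 (Cre10.g445000) had 4448, 5086 and 5399 normalized counts in DHC16, against 123.9 and 107.4 in A31 (log2 difference 5.41 ± 0.24, adjusted p = 8.4e-05). SLT3 (Cre10.g445050) had 838.2, 817.5 and 906.2 in DHC16, against 39.2 and 25.5 in A31 (log2 difference 4.71 ± 0.28, adjusted p = 2.3e-04). SULTR3 (Cre02.g138950), annotated as another sulfate transporter, went the other way, with 453.9, 413.1 and 345.3 in DHC16, against 717.3 and 1458 in A31 (log2 difference -1.35 ± 0.34, adjusted p = 0.048). That call was lost when any DHC16 library was left out. ATS1, an ATP sulfurylase that activates sulfate, had a log2 difference of 0.59 ± 0.35 (adjusted p = 0.32), and the arylsulfatase-like ARS6 had 18.7, 16.4 and 13.97 in DHC16, between 10.2 and 50.1 in A31.

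The phosphate genes were divided as well, with 1 of 5 higher and 1 lower. PTB2 (Cre26.g773350), a sodium/phosphate symporter, had 315.7, 192.1 and 342.3 normalized counts in DHC16, against 12.5 and 5.46 in A31 (log2 difference 4.88 ± 0.43, adjusted p = 0.0011). PTA3 (Cre16.g686750), a proton/phosphate symporter, had 574.3, 379.5 and 484.0 in DHC16, against 1188 and 3892 in A31 (log2 difference -2.18 ± 0.49, adjusted p = 0.031). The call of PTA3 was lost when any DHC16 library was left out. AOT4 (Cre06.g298750), an amino acid transporter and the only 1 of 6 nitrogen genes to pass, had 1035, 1472 and 1133 in DHC16, against 32.1 and 6.37 in A31 (log2 difference 6.26 ± 0.58, adjusted p = 0.0013). GSF1, described as a ferredoxin-dependent glutamate synthase, an enzyme of ammonium assimilation, had 935.4, 405.3 and 617.7 in DHC16, against 480.5 and 1098 in A31. Its groups overlapped (adjusted p = 0.78).

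Of 3 autophagy genes 2 were higher in DHC16 and 0 lower, against 7.44% higher and 11.0% lower among all genes with a symbol. APG8 (Cre16.g689650), the ubiquitin-like protein that coats autophagosomes, had 7635, 9957 and 8978 normalized counts in DHC16, against 1896 and 912.4 in A31, a log2 difference of 2.74 ± 0.37 (adjusted p = 0.0049). APG3 (Cre02.g102350), the enzyme that transfers APG8 to its lipid, had 1266, 1426 and 1410 in DHC16, against 584.8 and 272.2 in A31 (log2 difference 1.77 ± 0.35, adjusted p = 0.020). APG10 (Cre12.g532314), which acts in the conjugation of APG12, had 69.6, 39.8 and 36.9 in DHC16, against 76.8 and 124.7 in A31 (log2 difference -1.05 ± 0.40, adjusted p = 0.14). For both APG8 and APG3 A31 library 19 was the higher of the A31 libraries. Only APG8 passed when a DHC16 library was left out.

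Of 14 antioxidant and redox enzymes 3 were higher and 0 lower, and 9 lay above both A31 libraries. Among all genes with a symbol 7.44% were higher and 16.2% lay above both. GSTS1 (Cre16.g688550), a glutathione-S-transferase, had 1110, 3517 and 1925 normalized counts in DHC16, against 362.9 and 266.8 in A31 (log2 difference 2.65 ± 0.47, adjusted p = 0.014). FSD1 (Cre10.g436050), an iron superoxide dismutase, had 5922, 7965 and 6989 in DHC16, against 710.2 and 2974 in A31 (log2 difference 2.25 ± 0.56, adjusted p = 0.045). GRX2 (Cre12.g550400), a glutaredoxin, had 922.9, 1036 and 810.4 in DHC16, against 199.9 and 316.9 in A31 (log2 difference 1.86 ± 0.29, adjusted p = 0.0082). This count of 3 was 1, 0 and 0 without DHC16 library 19, 22 or 25. The list median was 0.88 against A31 library 19 and 0.20 against A31 library 22. NTR3, a thioredoxin reductase, had 194.4, 125.7 and 144.7 in DHC16, between 69.8 and 220.3 in A31 (adjusted p = 0.74).

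Single members of other energy lists were higher. BCS1 (Cre24.g768900), a factor for assembly of the mitochondrial cytochrome bc1 complex, had 7596, 9501 and 10091 normalized counts in DHC16, against 109.0 and 1239 in A31 (log2 difference 4.61 ± 0.87, adjusted p = 0.018). The A31 libraries lay far apart for BCS1, so the difference was 6.36 against library 19 and 2.86 against library 22. NDA2 (Cre33.g782800), the plastid NADH dehydrogenase that feeds electrons to plastoquinone, had 3543, 2950 and 3399 in DHC16, against 524.4 and 637.4 in A31 (log2 difference 2.51 ± 0.25, adjusted p = 0.0017). CHLM (Cre12.g498550), the methyltransferase of chlorophyll synthesis, was the only 1 of 9 tetrapyrrole genes to pass, with 2021, 2022 and 2053 in DHC16, against 320.6 and 702.9 in A31 (log2 difference 2.10 ± 0.35, adjusted p = 0.012). CCP2 (Cre04.g222750), a chloroplast envelope protein induced at low CO2, was the only 1 of 13 genes of carbon concentration, with 359.4, 378.7 and 387.2 in DHC16, against 21.95 and 108.4 in A31 (log2 difference 2.91 ± 0.59, adjusted p = 0.023). The counts of 1 of 9 and 1 of 13 are near the 7.44% called higher among all genes with a symbol, so they say nothing about these lists. The 3 carotenoid genes had 0 calls by limma, DESeq2 and edgeR (1 at an unadjusted p under 0.05), and DXS, the entry enzyme of plastid isoprenoid synthesis, had a log2 difference of -0.14 ± 0.25 (adjusted p = 0.76). The calls of BCS1, CHLM and CCP2 were lost when any DHC16 library was left out, and that of NDA2 was kept.

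Nuclear genes of photosystem II, light harvesting and the Calvin cycle were lower in DHC16 at 48 h. Of 23 listed members 0 were higher and 11 lower, 18 lay below both A31 libraries, and the median log2 difference was -2.01. Among the 766 genes with a symbol, 16.2% lay above both A31 libraries and 29.6% below both. Of the 100 genes with the highest normalized counts 81 lay below both, so that place is common among abundant genes. With per-million scaling 4 of 6 photosystem II, 7 of 9 light-harvesting and 2 of 8 Calvin cycle genes lay below both. Relative to the median of all tested genes the list medians were then -2.51, -2.26 and -1.50, against -2.59, -2.34 and -1.58 with the deposited scaling. In photosystem II 4 of 6 passed. PSBO (Cre02.g132800), the manganese-stabilising protein of the oxygen-evolving complex, had 2106, 1394 and 1958 normalized counts in DHC16, against 12748 and 21375 in A31, a log2 difference of -3.20 ± 0.35 (adjusted p = 0.0022). PSBP1 (Cre12.g550850), another protein of that complex, had 1819, 1271 and 1489 in DHC16, against 8458 and 21174 in A31 (log2 difference -3.15 ± 0.42, adjusted p = 0.0049). PSBX (Cre02.g082750), a small membrane subunit, had 1083, 694.9 and 829.3 in DHC16, against 5900 and 15978 in A31 (log2 difference -3.50 ± 0.44, adjusted p = 0.0041). PSBQ (Cre08.g372450), the remaining extrinsic protein of the complex, had a log2 difference of -2.01 ± 0.34 (adjusted p = 0.012). PSB28, a protein of photosystem II assembly, had 810.6, 707.4 and 689.6 in DHC16, against 776.8 and 1560 in A31, and its groups overlapped (adjusted p = 0.30).

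With the deposited scaling all 9 light-harvesting genes lay below both A31 libraries and 5 passed. These genes encode the chlorophyll-binding antenna proteins. LHCBM1 (Cre23.g766250), of the major antenna, had 7449, 4302 and 5526 normalized counts in DHC16, against 14453 and 54806 in A31 (log2 difference -2.33 ± 0.57, adjusted p = 0.043). LHCB5 (Cre16.g673650), a minor antenna protein, had 486.9, 356.8 and 383.2 in DHC16, against 1194 and 10545 in A31 (log2 difference -3.13 ± 0.79, adjusted p = 0.046). LHCBM4 (Cre06.g283950) had 156.1, 123.4 and 181.6 in DHC16, against 638.9 and 3411 in A31 (log2 difference -3.27 ± 0.63, adjusted p = 0.019), and it is similar enough to other LHCBM genes that shared reads make its level uncertain. LHCBM6 did not pass, with 2994, 3144 and 3362 in DHC16, against 3377 and 13504 in A31 (adjusted p = 0.24). The median difference of the list was -1.30 against A31 library 19 and -3.29 against A31 library 22. When any DHC16 library was left out, 0 passed.

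In the Calvin cycle 2 of 8 genes were lower, 4 lay below both A31 libraries and 1 above. RBCS2A (Cre02.g120150), a small subunit of the carbon-fixing enzyme Rubisco, had 8314, 6089 and 7801 normalized counts in DHC16, against 39458 and 33808 in A31 (log2 difference -2.32 ± 0.33, adjusted p = 0.0059). FBP1 (Cre12.g510650), the fructose-1,6-bisphosphatase, had 1017, 787.1 and 908.2 in DHC16, against 2548 and 2772 in A31 (log2 difference -1.56 ± 0.25, adjusted p = 0.0093). FBA1, an aldolase, had 6767, 4878 and 5648 in DHC16, between 8370 and 3967 in A31. The count of 2 was 1, 1 and 0 without DHC16 library 19, 22 or 25. The list median was -0.68 against A31 library 19 and -1.91 against A31 library 22. NAB1 (Cre06.g268600), an RNA-binding protein that represses translation of LHCBM transcripts, was far lower, with 137.3, 59.3 and 113.8 in DHC16, against 1990 and 2019 in A31 (log2 difference -4.35 ± 0.38, adjusted p = 0.0010). RBD2 (Cre06.g284600), a rubredoxin, a small iron protein, had the largest difference downward of the genes with a symbol, with 115.0, 56.2 and 64.9 in DHC16, against 3473 and 2478 in A31 (log2 difference -5.27 ± 0.36, adjusted p = 4.8e-04).

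The enzymes that bring acetate, the carbon source in the medium, into metabolism were lower, with 3 of 6 genes of acetate use and the TCA cycle passing and 0 higher. ACS3 (Cre07.g353450), an acetyl-CoA synthetase that activates acetate, had 2384, 1573 and 2099 normalized counts in DHC16, against 22005 and 17164 in A31, a log2 difference of -3.29 ± 0.31 (adjusted p = 0.0014). ICL1 (Cre06.g282800), isocitrate lyase of the glyoxylate cycle, had 3835, 6502 and 4476 in DHC16, against 28333 and 33494 in A31 (log2 difference -2.68 ± 0.35, adjusted p = 0.0043). MAS1 (Cre01.g057800), malate synthase of the same cycle, had 2928, 3018 and 2900 in DHC16, against 15581 and 13617 in A31 (log2 difference -2.30 ± 0.27, adjusted p = 0.0030). The A31 libraries lay close together for these genes. ACS3 and MAS1 kept the call when any DHC16 library was left out, and ICL1 lost it in 1 of 16 alternative settings. IDH1, an isocitrate dehydrogenase of the TCA cycle, had 348.7, 273.3 and 358.3 in DHC16, between 282.2 and 456.2 in A31 (adjusted p = 0.79). Of 8 genes of starch and storage lipid only SSS2 (Cre03.g185250), a soluble starch synthase, passed, with 950.6, 1909 and 1104 in DHC16, against 7463 and 4502 in A31 (log2 difference -2.20 ± 0.39, adjusted p = 0.014). That call was lost without DHC16 library 19 or 25, and 1 of 8 is near the 11.0% called lower among all genes with a symbol. HCP3 (Cre02.g129500), a hybrid-cluster protein known from cells without oxygen, was the only 1 of 4 genes of fermentation and hypoxia to pass, with 36.6, 126.5 and 44.9 in DHC16, against 499.3 and 1176 in A31 (log2 difference -3.67 ± 0.59, adjusted p = 0.0098). It was not called without DHC16 library 19 or 25.

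Of 20 listed cell wall genes 13 were lower and 0 higher, with 3 above both A31 libraries and 14 below both A31 libraries, at a median log2 difference of -2.63. Among all genes with a symbol 11.0% were lower, 16.2% lay above both A31 libraries and 29.6% below both. The members that moved were pherophorins (PHC2, PHC4, PHC15, PHC19, PHC22 and PHC24), which are hydroxyproline-rich glycoproteins of the wall, GAS28 and GAS31, which are glycoproteins of the same kind, the metalloprotease MMP13, and GOX1, GOX6, GOX8 and GOX18. GOX1 and GOX8 are described as glyoxal or galactose oxidases, which need not act on the wall. PHC15 (Cre09.g396100) had 549.3, 392.0 and 546.9 normalized counts in DHC16, against 4565 and 5796 in A31 (log2 difference -3.39 ± 0.28, adjusted p = 8.4e-04). GAS28 (Cre11.g481600) had 254.1, 297.5 and 262.5 in DHC16, against 1800 and 2681 in A31 (log2 difference -3.02 ± 0.27, adjusted p = 0.0011). GOX1 (Cre05.g243450) had 66.0, 100.7 and 50.9 in DHC16, against 726.7 and 3282 in A31 (log2 difference -4.45 ± 0.61, adjusted p = 0.0054). PHC24 (Cre09.g404150) had 2.67, 16.4 and 13.97 in DHC16, against 76.8 and 894.1 in A31 (log2 difference -4.74 ± 1.08, adjusted p = 0.032), and GOX8 (Cre18.g750800) had 7.13, 15.6 and 2.99, against 43.1 and 441.6 in A31 (-4.10 ± 1.00, adjusted p = 0.041). The last pair had few reads in DHC16 and lost the call when any DHC16 library was left out. The list count was 15 without A31 library 19 and 13 without A31 library 22, and 8, 7 and 8 without DHC16 library 19, 22 or 25. VSP6, a hydroxyproline-rich wall protein, did not differ beyond the spread, with 620.6, 370.9 and 610.8 in DHC16, between 707.9 and 316.0 in A31.

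Of 35 genes of replication and the cell cycle 4 were lower in DHC16 and 0 higher, a share close to the 11.0% called lower among all genes with a symbol, and 18 lay below both A31 libraries. The median log2 difference of the list was -0.34 against A31 library 19 and -1.59 against A31 library 22. CDKB1 (Cre08.g372550), a mitotic cyclin-dependent kinase of plants, had 41.9, 31.2 and 27.9 normalized counts in DHC16, against 131.7 and 580.9 in A31 (log2 difference -3.02 ± 0.59, adjusted p = 0.020). CYCA1 (Cre03.g207900), an A-type cyclin, had 73.1, 55.4 and 79.8 in DHC16, against 176.4 and 548.1 in A31 (log2 difference -2.16 ± 0.48, adjusted p = 0.030). TOP2, the topoisomerase that untangles chromosomes, had 8.03, 7.81 and 18.96 in DHC16, against 59.6 and 229.5 in A31 (log2 difference -3.34 ± 0.66, adjusted p = 0.020), and CDC20, the activator of the anaphase-promoting complex, had -2.38 ± 0.59 (adjusted p = 0.045). The list had 0 calls when any DHC16 library was left out. Of 12 genes of mitosis and plastid division 3 were lower. ALK3 (Cre12.g498650), an Aurora-like kinase, had 94.5, 85.1 and 105.8 in DHC16, against 489.1 and 826.8 in A31 (log2 difference -2.73 ± 0.31, adjusted p = 0.0026). SMC2 (Cre02.g086650) and SMC4 (Cre12.g493400), the core subunits of condensin, had log2 differences of -3.56 ± 0.63 and -2.87 ± 0.62 (adjusted p = 0.014 and 0.028). This list count was 1 when any DHC16 library was left out. The median of this list was -0.93 against A31 library 19 and -3.15 against A31 library 22. FOR1 (Cre03.g166700), a formin that nucleates actin filaments, had 8.92, 2.34 and 0.00 in DHC16, against 28.2 and 95.6 in A31, with 13 reads in all over the DHC16 libraries.

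Flagellar genes mostly showed no separation of the strains. Of 117 flagella associated proteins (FAP) 2 were higher, 4 lower and 96 overlapped between the strains. Of 50 genes of the axoneme, dynein arms, radial spokes and intraflagellar transport 1 was lower and 45 overlapped. Among all 766 tested genes with a symbol 415 overlapped, 7.44% were higher and 11.0% lower. For both lists the direction depended on the A31 library. The medians of the FAP list were -0.84 against A31 library 19 and 0.47 against A31 library 22. Those of the axoneme list were -0.50 against A31 library 19 and 0.47 against A31 library 22. FMG1-2 (Cre31.g780700), the major glycoprotein of the flagellar membrane, was an exception in the axoneme list, with 52.6, 71.1 and 41.9 normalized counts in DHC16, against 633.4 and 1107 in A31 (log2 difference -3.93 ± 0.36, adjusted p = 0.0012). FAP212 (Cre02.g077850) had 391.5, 443.5 and 318.4 in DHC16, against 2182 and 3028 in A31 (log2 difference -2.75 ± 0.28, adjusted p = 0.0017). FAP280 (Cre02.g108450), annotated as transcriptional coactivator-like, was higher, with 4731, 4354 and 4941 in DHC16, against 376.3 and 1258 in A31 (log2 difference 2.76 ± 0.48, adjusted p = 0.013). FAP281 had 8.92, 3.90 and 5.99 in DHC16, against 50.2 and 165.7 in A31 (log2 difference -3.73 ± 0.62, adjusted p = 0.011). DLC3, a light chain of the outer dynein arm, had 436.9, 558.3 and 593.8 in DHC16, between 799.6 and 347.8 in A31 (adjusted p = 0.99). When a DHC16 library was left out, the FAP list had 0 higher and 1 to 2 lower genes.

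At some genes the A31 libraries enclosed the DHC16 values by a wide gap, and no strain difference can be read there. FDX5 (Cre17.g700950), a ferredoxin known from cells without oxygen, had 9.81, 31.2 and 2.99 normalized counts in DHC16, against 0 and 4039 in A31. FEA1 (Cre12.g546550), a secreted protein of iron assimilation, had 8.92, 14.8 and 18.0 in DHC16, against 4.70 and 1287 in A31. CPN60C (Cre06.g309100), a mitochondrial-type chaperonin, had 1003, 767.6 and 750.5 in DHC16, against 6.27 and 1393 in A31, and HSP70C (Cre09.g393200), a mitochondrial Hsp70, had 971.1, 716.0 and 741.5, against 22.7 and 1084 in A31. FDX5 and FEA1 were far lower against A31 library 22 only, and CPN60C and HSP70C were far higher against A31 library 19 only. None of the 4 passed (adjusted p = 0.63, 0.43, 0.32 and 0.31).

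The 29 plastid ribosomal proteins had 0 calls in either direction by limma. Their median log2 difference was -0.56, and 19 lay below both A31 libraries and 0 above, against 29.6% below and 16.2% above among genes with a symbol. The placing of the list depended on the scaling, because with per-million scaling 7 lay below and 11 above. Per-million scaling moved the median over all tested genes to 0.49, and relative to that median the list stood at -0.50, against -0.58 with the deposited scaling and -0.09 with quantile scaling. At an unadjusted p under 0.05 10 members passed, DESeq2 gave 5 lower members and edgeR 0. The list median was -0.36 against A31 library 19 and -0.54 against A31 library 22. PRPS21 had 3425, 2129 and 2854 normalized counts in DHC16, against 2679 and 3184 in A31 (adjusted p = 0.88). The 3 cytosolic ribosomal proteins also had 0 calls by limma (0 at an unadjusted p under 0.05, 1 by DESeq2 and 0 by edgeR), with RPL38 at 42585, 26452 and 50609 in DHC16, against 79875 and 47140 in A31 (adjusted p = 0.41). At 0 h 11 of the 29 plastid and all 3 cytosolic ribosomal proteins had been higher in DHC16, and the change between times was downward for 12 and 3 of them. For the plastid list this turned with the scaling, since with per-million scaling 6 were lower at 0 h and 3 changed upward, and with quantile scaling 2 were higher and 2 changed downward. For the cytosolic list per-million scaling gave the same counts, and quantile scaling gave 2 higher at 0 h and 0 changed by limma. Among the 100 genes with the highest normalized counts at 48 h, which are not scaled by length, 2 were higher and 14 lower in DHC16, and 81 lay below both A31 libraries and 6 above. With per-million scaling 53 lay below and 11 above, and with quantile scaling 34 lay below and 35 above.

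The largest differences of all were in genes without a symbol. Cre12.g502600 had 2958, 3654 and 3210 normalized counts in DHC16, against 1.57 and 1.82 in A31, which held 4 reads in all, a ratio of 1960 (95% exact interval 763 to 7180, counting error only) and a log2 difference of 10.24 ± 0.25 (adjusted p = 8.9e-06). Cre07.g343050 had 8442, 8530 and 9365 in DHC16, against 4.70 and 10.0 in A31 (log2 difference 10.11 ± 0.32, adjusted p = 3.1e-05). Cre29.g778950 had 0, 0.781 and 0 in DHC16, 1 read in all, against 196.8 and 458.0 in A31, where the A31 level was higher by a ratio of 1080 (95% exact interval 193 to 42800). Cre39.g786050 had 1.78, 0 and 0.998 in DHC16, 3 reads in all, against 355.9 and 267.7 in A31, a ratio of A31 over DHC16 of 358 (95% exact interval 122 to 1740). At the counts of the last pair the fitted log2 differences of -7.96 and -7.45 depend on the pseudocount of 1. A further 5 genes had 0 reads in both A31 libraries and at least 30 in each DHC16 library, and against a floor of 3 reads per A31 library they were at least 31.4-fold to 139-fold higher in DHC16. For 0 genes was the reverse found.

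At 0 h 709 genes (4.92%) were higher and 609 (4.22%) lower in DHC16, and 1318 (9.14%) passed in all. With the library number as a block, which pairs the strains at 0 h, 1266 were higher and 863 lower. Of the 943 genes higher at 48 h, 123 were also higher at 0 h, 15 were lower and 805 were not called. Of the 688 genes lower at 48 h, 121 were also lower at 0 h, 26 were higher and 541 were not called. The 123 genes are 17.3% of those higher at 0 h, and the 121 genes are 19.9% of those lower at 0 h. The test of the 48 h difference minus the 0 h difference called 893 genes (6.19%) upward and 778 (5.39%) downward, among them 668 of the higher genes (70.8%) and 412 of the lower genes (59.9%). The 0 h count was 101, 210 and 50 without A31 library 1, 4 or 7, and 212 without DHC16 library 4. The count for the change between times was 1101 without DHC16 library 25 and 1042 without A31 library 7. That fit shares a single spread over the groups of 0 h and 48 h. Its p-values can therefore be too small where the A31 libraries of 48 h lay far apart. With a weight for each group, over all vitamin libraries, the count was 837. Since the 48 h libraries enter both sides of the shares of 70.8% and 59.9%, these shares describe the 48 h calls and are no separate support for them.

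**Figure D4:**
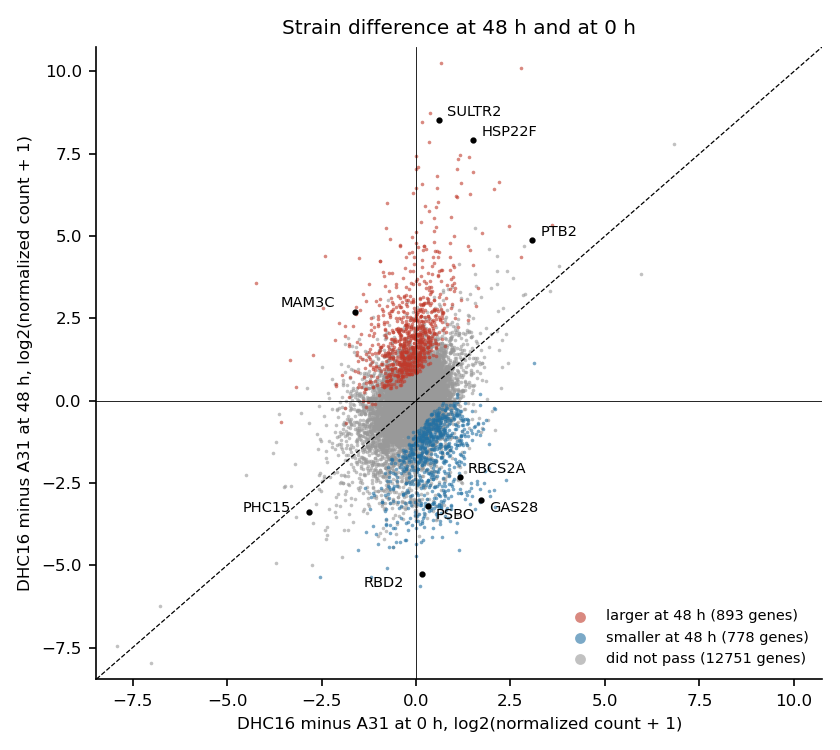
Each point is 1 of 14422 tested genes, placed by DHC16 minus A31 at 0 h (horizontal axis) and at 48 h (vertical axis), in log2(normalized count + 1), with equality as a dashed line. The 893 genes at which DHC16 moved upward relative to A31 (red, larger in the key) lie above the line. The 778 genes at which it moved downward (blue, smaller in the key) lie below it. Larger and smaller are signed, so the blue genes include some whose gap widened, such as PSBO (0.31 at 0 h and -3.20 at 48 h). PHC15 lies close to the line.

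Some differences were present before the vitamins. HSP22F had 153.1, 79.1 and 130.6 normalized counts in DHC16 at 0 h (libraries 1, 4 and 7), against 40.3, 36.6 and 43.6 in A31 (log2 difference 1.52 ± 0.27, adjusted p = 0.022), and the difference at 48 h was larger by 6.39 ± 0.43 (adjusted p = 5.6e-06). RDP3 and AOT4 also were higher at 0 h, by 1.504 and 1.427 (adjusted p = 0.013 and 0.033), and larger at 48 h by 5.45 and 4.84 (adjusted p = 6.3e-04 and 8.1e-04). PTB2 had 359.4, 436.1 and 349.9 in DHC16 at 0 h, against 33.6, 64.1 and 40.8 in A31, and its difference at 48 h was larger than at 0 h by 1.82 (adjusted p = 0.034). PHC15 had 261.4, 171.8 and 124.0 in DHC16 at 0 h, against 890.8, 1359 and 1665 in A31, and its 48 h difference was not shown to differ from that at 0 h (-0.56, adjusted p = 0.46). The kinase gene STPK23 had log2 differences of -2.74 at 0 h and -3.72 at 48 h (adjusted p = 0.019 and 0.032). It had few reads in DHC16, with 2.04, 1.93 and 1.31 normalized counts at 0 h and 7 reads in all at 48 h. Its 48 h call was lost in 7 of 15 alternative settings. The 2 genes without a symbol with the largest differences downward had -7.00 and -7.92 at 0 h.

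Other genes had opposite signs at the 2 times. RBCS2A was higher in DHC16 at 0 h, with 59590, 59961 and 37926 normalized counts in DHC16, against 25999, 26610 and 17762 in A31 (log2 difference 1.15, adjusted p = 0.044), and lower at 48 h. GAS28 and FAP212 were low at 0 h in both strains and still higher in DHC16, GAS28 with 12.3, 21.2 and 13.1 in DHC16, against 2.24, 6.87 and 3.51 in A31, and at 48 h both were lower. The 0 h sign of GAS28 (adjusted p = 0.045) rests on few reads. Its value in A31 library 1 lies below the floor of 3 reads, 3.36 normalized counts in that library. MAM3C (Cre13.g573100), described as a predicted protein, was lower at 0 h (log2 difference -1.61, adjusted p = 0.025) and higher at 48 h, with 198.0, 260.0 and 270.5 in DHC16, against 40.8 and 31.9 in A31 (2.71 ± 0.29, adjusted p = 0.0022). ACS3 and MAS1 were lower in DHC16 at both times, by -1.22 and -0.71 at 0 h (adjusted p = 0.0059 and 0.027), and the difference at 48 h went further by -2.07 and -1.59. With per-million scaling the median of all tested genes at 0 h was -0.59, and only 139 of 7315 called genes were higher, so the 0 h signs hold relative to the deposited scaling.

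**Figure D5:**
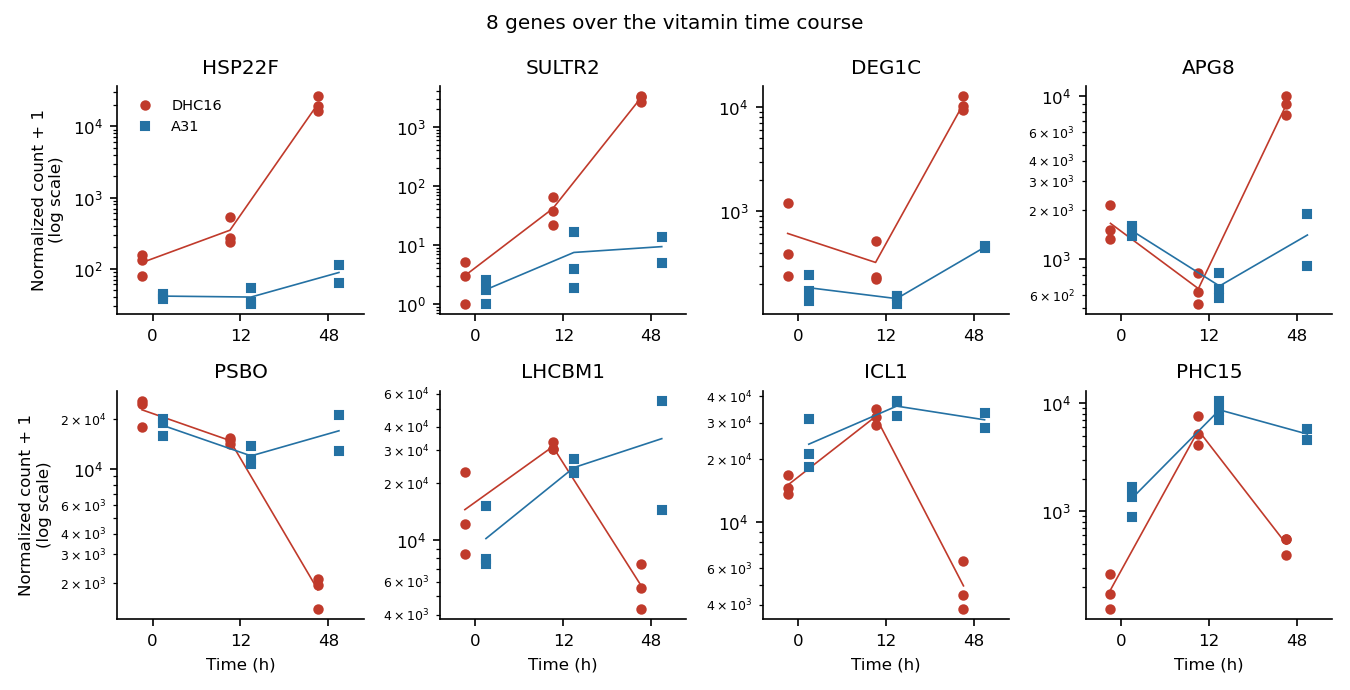
Normalized count + 1 (log axes) of 8 genes at 0, 12 and 48 h in DHC16 (red circles) and A31 (blue squares), each point a library and each line joining the group means. HSP22F, SULTR2, DEG1C and APG8 part from A31 mainly at 48 h, and PSBO, LHCBM1, ICL1 and PHC15 are lower in DHC16 than in A31 at 48 h.

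The 12 h libraries place these differences in time. At 12 h PSBO averaged 14874 ± 707.5 normalized counts in DHC16 and 11982 ± 1528 in A31 (SD, n = 3 each), and ICL1 averaged 32049 ± 2884 in DHC16 and 35967 ± 3167 in A31. APG8 averaged 657.9 ± 146 in DHC16 and 683.0 ± 126 in A31 at 12 h. SULTR2 had 20.6, 63.9 and 36.0 in DHC16 at 12 h (libraries 10, 13 and 16), against 0.838, 15.6 and 2.89 in A31, and HSP22F had 238.5, 529.9 and 270.2, against 31.0, 53.0 and 32.8 in A31. The strains were not tested against each other at 12 h here.

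Neighbouring genes shared calls in some places. In the order of genes in the RefSeq table of the assembly Chlamydomonas_reinhardtii_v5.5, 8848 adjacent pairs were tested at both members, of which 85 were higher at both, 34 lower at both and 48 were called in opposite directions. The pairs SLT2 and SLT3, HSP22F and HSP22E, and CHLM and DEG1C were adjacent and higher at both members. PSBP1, ALK3, LHCBM4, GSTS1 and ACS3 each stood beside a gene called in the opposite direction. Over all tested genes 6.54% were higher and 4.77% lower. The pair counts were not tested against these shares, so nothing is read from the opposite pairs. The counting strand is not given in the sources used here, so reads of overlapping neighbours cannot be told apart.

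Rapamycin, an inhibitor of the TOR kinase that controls growth, was given to A31 in another arm of the study, whose libraries were not analysed here. The authors' fold changes are against A31 at 0 h, a reference unlike that of the strain comparison at 48 h. Their deposited table for 8 h of rapamycin lists 673 of the 14422 tested genes as up and 994 as down. As background, 6.54% of all tested genes were higher and 4.77% lower in DHC16 at 48 h. Of those listed as up by the authors' deposited table, 187 (27.8%) were higher in DHC16 at 48 h and 28 (4.16%) lower, and of those down 7 (0.704%) were higher and 231 (23.2%) lower. These are 19.8% of all genes higher at 48 h for the 187, and 33.6% of all genes lower at 48 h for the 231. For 2 h, the authors' deposited table lists 868 genes up, of which 121 (13.9%) were higher and 34 (3.92%) lower at 48 h, and 1013 down, of which 19 (1.88%) were higher and 196 (19.3%) lower. In the authors' deposited table the log2 fold changes at 8 h were 5.06 for HSP22F, 4.73 for DEG1C, 4.08 for BCS1, 2.44 for SULTR2 and 1.73 for APG8. It gives FMG1-2 at -5.88 and FAP212 at -3.99 in the authors' deposited table at 8 h, both lower in DHC16 at 48 h. Other genes ran the opposite way, since the authors' deposited table has PHC24 at 6.39, PTA3 at 3.37, PSBP1 at 1.74, RBD2 at 1.63 and PSBO at 1.59 at 8 h, and PTB2 at -1.29. For the 2 h time it lists SLT2 at -1.18 and SLT3 at -1.5, and ACS3 and ICL1 at -3.25 and -3.45, in the authors' deposited table. All genes with a symbol come from these tables, so no list here is independent of the rapamycin response.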

How the data were processed

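RNA was sequenced after TRIzol extraction and TruSeq library preparation, per the labels' protocols, and of the 18 records of the vitamin experiment 17 libraries were used (A31 library 25 was not analysed here). Per the submitters' processing notes, edgeR 3.0.8, HTSeq 0.5.3p9, TopHat 1.3.1 and CASAVA 1.8.2 were used, in roles the notes do not state. The genome build and whether counting used the strand have no statement in the labels. The values deposited by the authors are normalized counts, a signal that, from the values, holds each library's whole counts times a factor of that library. All columns of that table were used (0 left out). In each library 100% of the values were whole multiples, within 0.01, of what 1 read was worth (0.703 to 2.04 normalized counts), which gave back 7458423 to 13699705 reads. A floor of 3 reads and 95% exact intervals cover counting error only.

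The deposited values were tested on the scale log2(value + 1) with limma 3.58.1 in R 4.3.3, with trended variance, over the 14422 genes that averaged at least 1 on a CPM scale across the 17 libraries. The 48 h comparison used its 5 libraries, the 0 h comparison its 6, and the change between times all 11, with Benjamini-Hochberg adjusted p-values and a threshold of 0.05. edgeR 4.0.16 and DESeq2 1.42.0 were run on the recovered reads as alternatives. Other alternatives were scaling to equal totals (per-million) and quantile scaling, pseudocounts of 0.25 and 8, no filter or a filter at 10 on that scale, all vitamin libraries in the fit, a replicate block, and leaving out each library. The scripts were tested on simulated data. At 0 h, same-numbered libraries of the strains deviated together (correlations of 0.222, 0.211 and 0.151), so the numbers pair them there, and the blocked count is given beside the result.

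Gene symbols came from the authors' deposited rapamycin tables, whose log2 fold changes and p-values are the authors' own. Those tables list only genes that passed their thresholds, so 766 tested genes carry a symbol, and the lists hold only such genes. The members and lists were chosen with earlier results of these data known. Genes were named by a rule: the 12 with a symbol and the largest difference in each direction among those called without overlap, up to 4 called members of each list and its member with the largest adjusted p, METE, the 2 genes without a symbol with the largest difference in each direction, and 4 each of genes that lie between the A31 libraries, that have opposite calls at 0 h and 48 h, or that have the same call at both. Genes named outside this rule, such as HSP70B, CPN10, DEG1A, FTSH1, FTSH2, ATS1, the further called members of the cell wall list and the neighbours, were chosen after their values were seen. The RefSeq gene table of the assembly Chlamydomonas_reinhardtii_v5.5 matched 12646 gene IDs and was used only for which genes neighbour each other. Coordinates and sequences were not used here.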

Additional observations from a re-analysis of the deposited data

Results flagged for a closer look

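The difference between DHC16 and A31 at 48 h was set against that at 0 h in a test of the change itself, and 1671 genes passed. The test shares a single spread over the groups of both times, so calls can be too many where the A31 libraries of 48 h lay far apart. With group weights 837 passed. Every value below is the 48 h difference minus the 0 h difference in log2(normalized count + 1), so a positive value means that DHC16 moved upward relative to A31. Among genes of transport, the values were 7.94 for SULTR2, 5.28 for SLT2, 3.34 for SLT3, -1.43 for SULTR3, 4.84 for AOT4 and 1.82 for PTB2. Among chaperones and proteases they were 6.39 for HSP22F, 6.23 for HSP22E, 1.67 for CLPB3, 2.57 for DNJ5 and 3.14 for DEG1C. In autophagy and redox they were 2.62 for APG8, 1.69 for APG3, 1.94 for GSTS1 and 1.75 for GRX2.

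In photosynthesis the values were -4.26 for PSBX, -3.51 for PSBO, -3.46 for PSBP1, -3.03 for PSBQ, -3.55 for LHCB5, -2.79 for LHCBM1, -2.67 for LHCBM3, -3.47 for RBCS2A, -1.82 for FBP1 and -4.34 for NAB1, against 1.48 for NDA2, 3.88 for CCP2 and 1.48 for CHLM. In carbon and energy metabolism they were -2.07 for ACS3, -2.06 for ICL1, -1.59 for MAS1, -1.38 for SSS2, -3.84 for HCP3, -5.42 for RBD2 and 4.35 for BCS1. In cell division they were -3.77 for CDKB1, -2.76 for CYCA1, -4.13 for ALK3 and -4.41 for SMC2. Among flagellar genes they were -3.72 for FMG1-2, -3.88 for FAP281, -4.69 for FAP212 and 2.28 for FAP280, and among wall-related genes -3.84 for GOX1 and -4.74 for GAS28. The remaining values were 5.45 for RDP3, 4.50 for PWR1, 2.97 for TRZ1, 4.31 for MAM3C, -3.69 for CGL46, -2.44 for RPL38, 9.57 for Cre12.g502600 and 7.35 for Cre07.g343050.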

How the results depend on the processing

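The count of 1631 genes at 48 h was 3126 with per-million scaling, 1033 with the stricter filter of 10, 4545 with all vitamin libraries sharing the spread, 1087 with group weights and 2568 with DESeq2, and it ranged from 383 to 4477 when a library was left out. The count of 1318 at 0 h was 7315 with per-million scaling, 866 with no filter and 2028 with group weights, and ranged from 50 to 1103 when a library was left out. The count of 1671 for the change between times was 8566 with per-million scaling, 2584 with the shared spread and 837 with group weights, and ranged from 1042 to 3398. The count of genes without overlap at 48 h, 6550, was 3940 with the filter of 10, and ranged from 7304 to 11288 when a library was left out, since fewer libraries overlap less. With the replicate block the counts were 970 at 48 h, 2129 at 0 h and 1062 for the change. At 48 h the deviations of A31 libraries 19 and 22 mirror each other exactly. The correlations of same-numbered libraries (-0.084 and 0.056) therefore cannot show whether the numbers pair them. Of 67 named genes called at 48 h, 67 kept the call with DESeq2 and 66 with edgeR, 60 with the block, 56 with group weights, 40 with no filter, and 37, 37 and 32 without DHC16 library 19, 22 or 25. The log2 difference at 48 h had opposite signs against the A31 libraries at 20 of 98 named genes, of which 0 were called. With 1 A31 library left out only the size of the difference can be read. Among these genes, without A31 library 19 or 22, it was for example -0.91 or 1.16 for PDI2 and -0.74 or 6.84 for CPN60C. It was -0.82 or 0.81 for PGR5, -1.64 or 0.78 for CPX1 and -8.50 or 3.48 for FDX5. The cause of these shifts was not tested. Genes with few reads in either strain, such as FOR1, are limited by depth.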
